A study of Mus musculus with 8 samples.

Results

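Heat shock proteins of the cytosol and the mitochondrion were followed in sorted mouse B cells through 10 genes named by symbol: Hspa1a, Hspa1b, Hspa8, Hsph1, Dnaja1, Dnajb1, Hsp90aa1, Hsp90ab1, Hspd1 and Hspe1. Every probe set annotated to 1 of these symbols was taken, which gave 11 of the 12488 probe sets of the array for 9 of the 10 genes and of the 8252 genes named by a probe set of their own. Hsp90aa1 and Hspd1 each had a second probe set, and Hsp90ab1 is not analysed here. All 11 probe sets passed the filter on low values, being above the floor of 81 intensity units on at least 2 of the 8 arrays.

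RNA was measured on Affymetrix mouse arrays, 2 for each of 4 groups, and each array held B cells pooled from 4 to 10 mice. TI day 4 cells were GL7+ B220+ germinal centre B cells sorted 4 days after intraperitoneal immunisation with 30 µg of NP-Ficoll, a T-independent antigen. TD day 10 cells carried the same surface markers and came from mice without carrier priming, 10 days after 50 µg of NP on chicken gamma-globulin in alum with heat-killed B. pertussis. TD day 4 cells, also GL7+ B220+, came from mice primed with 50 µg of the carrier in alum with heat-killed B. pertussis and given 50 µg of soluble NP-CGG, a T-dependent antigen, after 5 weeks, 4 days before the sort. Resting B cells were sorted as GL7- B220+ from unimmunised mice. The immunised animals were QMxB6 F1 mice. The submitters call the replicates biological, since each pool came from different mice.

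Heat shock proteins bind unfolded or partly folded proteins and help them fold. In the cytosol, Hsp70 proteins work in cycles driven by ATP, with J-domain proteins that load the client and exchange factors that release it, and pass some clients to Hsp90. In the mitochondrial matrix the Hsp60 chamber, closed by its Hsp10 lid, folds imported proteins. Hsf1, the heat shock transcription factor, binds inverted repeats of GAA in the promoters of many of these genes when proteins unfold, so that inducible members rise while constitutive members are present at all times.

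The deposited values were scaled to about the same level on every array, with array medians between 77 and 89 units. The 9 B cell markers with a probe set were above the floor in all 4 groups. Bcl6, a germinal centre transcription factor, passed the test as higher than resting in each germinal centre group. Its call in TI day 4 was lost without TI day 4 replicate 2 (log2 0.93) and when only the arrays compared were fitted (adjusted p = 0.0913). In TD day 4 its call was also lost when only the arrays compared were fitted (adjusted p = 0.05002). Of the 6 germinal centre markers tested, Bcl6 among them, 2 passed as higher than resting in TI day 4. For TD day 10 it was 5, with 1 lower, and for TD day 4 it was 3. Gcsam, another, had 156 and 131 units on the TI day 4 arrays and 154 and 101 on resting arrays. Its log2 difference for TI day 4 minus TD day 10 was -2.12 (adjusted p = 0.023). Against TD day 4 it was -2.30 (adjusted p = 0.028). Both passed as lower, each call being lost under 8 of 17 alternatives. Summed markers of other cells differed between groups. The 7 plasma cell markers summed to 11007 and 14377 units on the TI day 4 arrays and to at most 4702 on the other arrays. Most of the TI day 4 sum was Jchain (7347 and 9356 units), and Xbp1, Tnfrsf17 and Ell2 were also highest on both TI day 4 arrays. Irf4 (125 and 516 units in TI day 4, 292 and 511 in resting) and Sdc1 overlapped between TI day 4 and every other group. Prdm1, with 76 and 63 units, was under the floor in TI day 4. The 13 macrophage markers summed to 7172 to 8530 in TI day 4 and to at most 5783 elsewhere. The order against resting rested on Apoe, with 4213 and 3371 units in TI day 4 and 434 and 775 in resting. Of the 10 tested, 9 had a log2 difference above 0 in TI day 4 minus TD day 4, 7 against TD day 10 and 5 against resting. C1qa, C1qc, Lyz2 and Vcam1 were lower on both TI day 4 arrays than on both resting arrays. C1qb (871 and 1066 units against 776 and 700) and Cd14 (824 and 849 against 665 and 712) were higher. Adgre1 was at or under 22 units on all arrays. Resting arrays were highest in the summed 8 red cell precursor markers, 23952 to 26703 units with at most 3682 elsewhere, and in the summed 10 neutrophil markers, 6764 to 7167 with at most 3105 elsewhere. Most of the red cell sum in resting was Hba-a1 (15550 and 13751 units) and Hbb-b2 (8744 and 7985), and Alas2 and Car2 were also highest on both resting arrays. Slc4a1 went the other way, with 1700 and 2317 units in TI day 4 and 724 and 707 in resting, and Klf1 overlapped between resting and both TD groups. Of the neutrophil markers, S100a8 (2833 and 3279 units in resting), S100a9, Camp and Ltf were highest on both resting arrays. Mpo was lowest on both (114 and 119 units), and Elane, Lcn2, Ly6g and Prtn3 overlapped between resting and at least 1 other group. The 8 T cell markers summed to at most 906 units on any array. The ratio of 3' to 5' signal of the Gapdh control, a sign of RNA quality, was 1.24 and 1.68 in TI day 4, 0.836 and 0.896 in TD day 10, 0.981 and 0.954 in TD day 4 and 0.867 and 1.59 in resting B cells. The part of these cell and RNA differences in the results was not tested. In bulk RNA of this kind, fewer cells with a transcript and less of it per cell cannot be told apart.

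The widest differences were those of the inducible Hsp70 pair, Hspa1a and Hspa1b, which encode nearly the same cytosolic chaperone and are known for low levels in unstressed cells. Their genes lie close together on chromosome 17, and their promoters are shown because these were the only heat shock genes that passed the test as higher in any comparison. The windows run from 250 bases before the annotated start to 50 after it, from RefSeq on GRCm38.p6, at chr17:34972107-34972406 on the minus strand for Hspa1a and chr17:34959189-34959488 on the minus strand for Hspa1b. Capitals mark GAANNTTC, an inverted repeat of the kind Hsf1 binds.
Hspa1a: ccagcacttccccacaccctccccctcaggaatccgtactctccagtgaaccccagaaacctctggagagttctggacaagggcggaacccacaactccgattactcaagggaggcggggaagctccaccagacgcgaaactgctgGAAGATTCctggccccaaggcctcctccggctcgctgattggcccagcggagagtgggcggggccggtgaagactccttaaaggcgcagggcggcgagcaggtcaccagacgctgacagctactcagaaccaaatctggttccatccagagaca
Hspa1b: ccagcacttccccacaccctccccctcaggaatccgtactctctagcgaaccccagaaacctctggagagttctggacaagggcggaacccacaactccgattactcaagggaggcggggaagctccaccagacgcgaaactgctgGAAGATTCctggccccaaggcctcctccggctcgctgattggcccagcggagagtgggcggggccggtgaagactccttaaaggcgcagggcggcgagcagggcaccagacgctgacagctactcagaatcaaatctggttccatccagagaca
Without gaps, 296 of the 300 positions were identical, and 201 of them formed 1 unbroken stretch that held the motif, which began 104 bases before the start in both. The coding sequences of the 2 genes are known to be near-identical as well, and whether their probe sets tell them apart was not tested, so the value of each gene alone is uncertain. CCAAT, a common promoter box, began 67 bases before the start in both as its reverse complement ATTGG.

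Hspa1a had 2876 and 1709 intensity units in TI day 4, 152 and 230 in TD day 10, 170 and 912 in TD day 4 and 45 and 101 in resting B cells. Hspa1b had 3841 and 1874 units in TI day 4, 280 and 442 in TD day 10, 321 and 1334 in TD day 4 and 85 and 247 in resting B cells. For both genes the TI day 4 arrays lay above all 6 others, and replicate 2 of TD day 4 came next, above the other TD arrays. The replicate 1 array of TD day 4 lay among those of TD day 10.

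Hspa1a was at least 24.5-fold higher in TI day 4 than in resting B cells (log2 difference at least 4.62 ± 0.76 SE, adjusted p = 0.016), a lower bound because 1 resting array was under the floor. Hspa1b was 18.5-fold higher (log2 difference 4.21 ± 0.82 SE, adjusted p = 0.028). Among all 7253 probe sets tested, 5.42% passed as higher in this comparison, and 2 of the 11 heat shock probe sets did. Leaving out either TI day 4 array or either resting array raised the adjusted p of Hspa1a to between 0.056 and 0.090, with log2 differences of 4.23 to 4.98, and the call held without each TD array. For Hspa1b the call was lost without TI day 4 replicate 1 (log2 3.69, adjusted p = 0.137), TI day 4 replicate 2 (4.73, 0.082), resting replicate 1 (3.44, 0.105) or either TD day 10 array (4.21, 0.056 and 0.057). Both calls were also lost with no filter on low values (adjusted p = 0.0952 and 0.139) and when the 4 arrays compared were fitted alone (0.0535 and 0.123).

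Against the T-dependent responses neither gene passed. The log2 difference of Hspa1a between TI day 4 and TD day 10 was 3.57 (95% interval 1.73 to 5.41, adjusted p = 0.077), and between TI day 4 and TD day 4 it was 2.49 (0.65 to 4.33, adjusted p = 0.208). That of Hspa1b was 2.93 (0.94 to 4.92, adjusted p = 0.141) against TD day 10 and 2.04 (0.05 to 4.03, adjusted p = 0.336) against TD day 4. For Hspa1a against TD day 10 the log2 difference of 3.57 passed without TD day 4 replicate 1 or replicate 2, with adjusted p = 0.028 and 0.030.

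**Figure D1:**
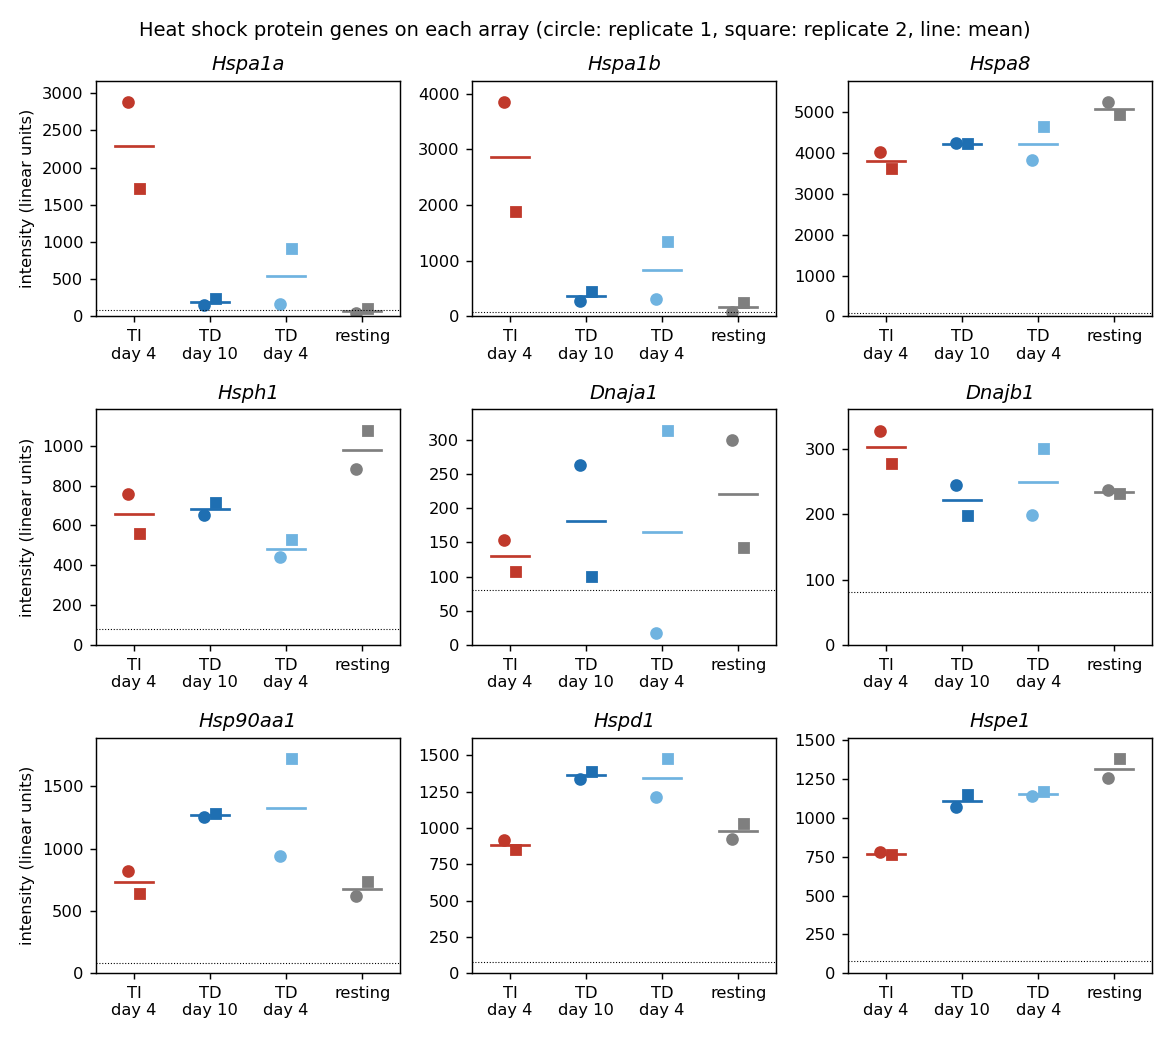
Intensity (linear units as deposited, axis from 0) of the 9 genes on each array, with circles for replicate 1, squares for replicate 2, a line for the mean of the 2 arrays of a group and a dotted line at the floor of 81. Hspa1a and Hspa1b were highest on both TI day 4 arrays and next highest on TD day 4 replicate 2, while Hspa8, Hsph1 and Hspe1 had their highest group mean in resting B cells.

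The 2 TD day 4 arrays disagreed on the pair more than on nearly all other transcripts. Replicate 2 was 5.36-fold above replicate 1 for Hspa1a and 4.16-fold for Hspa1b, gaps wider than those of 99.7% and 99.3% of the probe sets tested. Both genes were measured on pools of different mice, 6 in replicate 1 and 9 in replicate 2. The log2 difference of Hspa1a between TD day 4 and resting was at least 2.12 (0.28 to 3.96, adjusted p = 0.161) over both arrays. It was 3.33 without replicate 1 and 0.91 without replicate 2. That of Hspa1b was 2.18 (0.19 to 4.16, adjusted p = 0.183), lay between 1.15 and 3.20 under the alternatives and passed under none. Between TD day 10 and resting that of Hspa1a was at least 1.05 (-0.79 to 2.89, adjusted p = 0.483). Both values of Hspa1a are lower bounds because 1 resting array was under the floor.

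By their brightest probe sets all 9 genes were higher in TD day 4 replicate 2 than in replicate 1, against 41.7% of all probe sets. In TI day 4 all 9 were lower in replicate 2, where 44.8% of all probe sets were higher. The second Hsp90aa1 probe set went the other way in TI day 4, with 127 units in replicate 1 and 152 in replicate 2. Hspa1a and Hspa1b are counted as 2 genes here, though their probe sets may not tell them apart. Apart from the Hsp70 pair, the widest gap within TD day 4 was that of Dnaja1 (3.86-fold), with Hsp90aa1 at 1.83-fold, Dnajb1 at 1.51-fold and Hspe1 at 1.02-fold. Immediate early genes, which encode short-lived proteins made within minutes of many stimuli, moved with this gap: 15 of the 19 tested were higher in replicate 2 of TD day 4 and 2 were lower. Fos, a member of that list, had 2150 and 1711 units in TI day 4, 459 and 455 in TD day 10, 250 and 1036 in TD day 4 and 101 and 195 in resting B cells. Over the groups the list as a whole did not follow Fos. In TI day 4 minus resting 8 of the 19 had a log2 difference above 0, with a median of -0.09. Jund, Ier2 and Btg1 were highest on both resting arrays. The part of this difference between the 2 pools in the heat shock results was not tested.

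**Figure D2:**
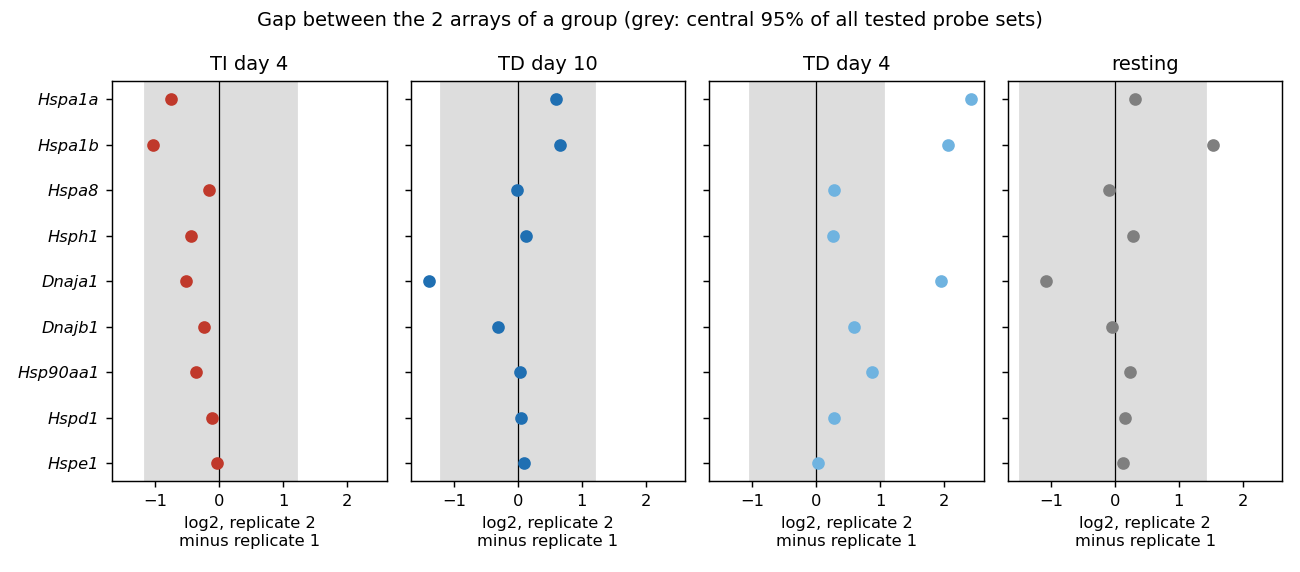
Log2 difference between the 2 arrays of each group, replicate 2 minus replicate 1, for the brightest probe set of each gene (points), with the central 95% of all tested probe sets in grey. In TD day 4 all 9 points lie above 0 and those of Hspa1a, Hspa1b and Dnaja1 lie beyond the grey band, while in TI day 4 all 9 lie below 0.

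Across the 8 arrays, the log2 intensities of Hspa1a and Hspa1b correlated with r = 0.977, and those of Dnajb1 with them at r = 0.785 and 0.725. These are descriptions over 8 arrays that share 4 groups, and the likeness of the copies bears on the first. Outside the family, and among 6392 probe sets of single genes, those most like Hspa1a were Cmas (r = 0.967), Emid1 (0.963) and Fos (0.960). Most like Hspa1b were Fos (r = 0.972), Man2a1 (0.945) and Tceal9 (0.943). Cmas activates sialic acid for addition to sugar chains, and Man2a1 trims sugar chains in the Golgi. Cmas spanned a narrower range than the Hsp70 pair, with 239 and 231 units in TI day 4, 147 and 161 in TD day 10, 156 and 180 in TD day 4 and 148 and 145 in resting B cells.

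**Figure D3:**
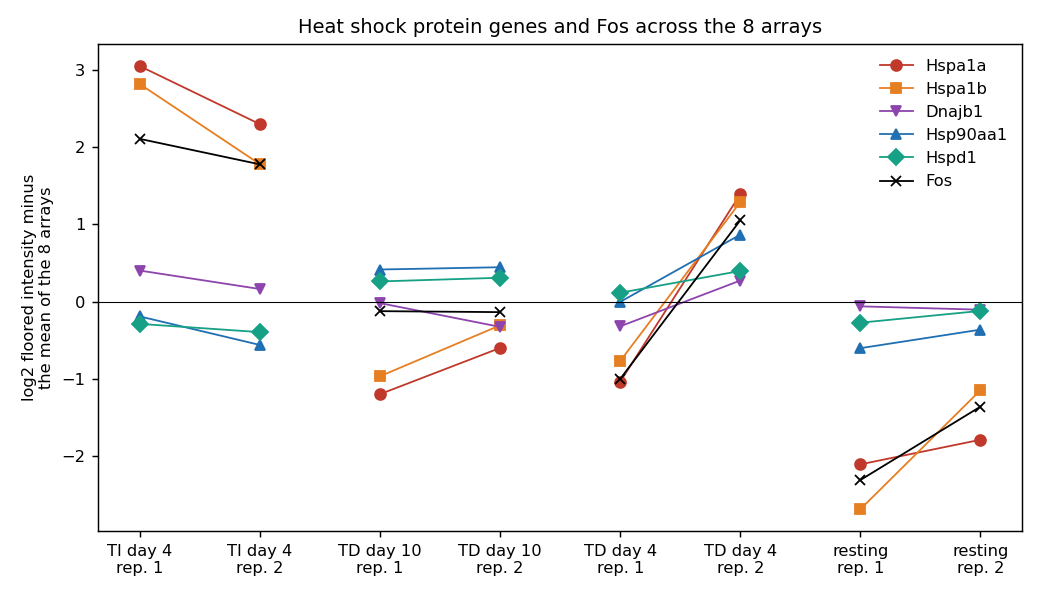
Log2 floored intensity minus the gene's own mean over the 8 arrays, for 5 heat shock genes and Fos, with a line joining the 2 arrays of a group, whose order has no meaning. Hspa1a, Hspa1b and Fos lie above their means on both TI day 4 arrays and on TD day 4 replicate 2 and below them on the other 5 arrays, while Hsp90aa1 and Hspd1 lie above their means on the TD arrays, apart from Hsp90aa1 on TD day 4 replicate 1, which lies at about 0.

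Hspa8, the constitutive Hsp70 of the cytosol, followed another order. It had 4030 and 3601 units in TI day 4, 4243 and 4224 in TD day 10, 3835 and 4638 in TD day 4 and 5244 and 4925 in resting B cells. Both resting arrays lay above all germinal centre arrays, and TD day 4 overlapped with TI day 4 and with TD day 10. None of its differences passed, and the widest, TI day 4 minus resting, was -0.42 on the log2 scale (-0.82 to -0.01, adjusted p = 0.209).

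Hsph1, an Hsp110 protein that exchanges nucleotide on Hsp70 and so lets go of the client, had 756 and 558 units in TI day 4, 650 and 712 in TD day 10, 440 and 527 in TD day 4 and 884 and 1074 in resting B cells. It was 2.02-fold lower in TD day 4 than in resting B cells (log2 difference -1.02 ± 0.22 SE, adjusted p = 0.040), the only heat shock call in that comparison, where 3.58% of all probe sets passed as lower. The call was lost without either TD day 10, either TD day 4 or either resting array, with adjusted p between 0.063 and 0.198 and log2 differences of -1.16 to -0.88. It was also lost with the floor at the 40th percentile (0.064), with no filter (0.0989) and with the compared arrays alone (0.114). Its resting arrays lay above all germinal centre arrays, and its differences in TI day 4 (-0.59, adjusted p = 0.177) and TD day 10 (-0.52, adjusted p = 0.222) from resting did not pass.

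The J-domain proteins Dnajb1 and Dnaja1, which bring clients to Hsp70 and start its ATP cycle, did not pass in any comparison. Dnajb1, the J-domain partner induced by heat, had 328 and 278 units in TI day 4, 245 and 198 in TD day 10, 199 and 300 in TD day 4 and 238 and 231 in resting B cells. TI day 4 lay above TD day 10 and resting with no overlap, and within TD day 4 replicate 2 was again the higher array. The log2 difference of TI day 4 from resting was 0.36 (-0.23 to 0.96, adjusted p = 0.461) and from TD day 10 0.46 (-0.14 to 1.05, adjusted p = 0.417).

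Dnaja1, another cytosolic J-domain protein, had 154 and 107 units in TI day 4, 263 and 100 in TD day 10, 18 and 313 in TD day 4 and 300 and 142 in resting B cells. Its 2 arrays differed more within 3 of the groups than any group means did, so no order of groups can be read from it.

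Hsp90aa1, the inducible cytosolic Hsp90, which holds kinases and steroid receptors ready for activation, had 824 and 638 units in TI day 4, 1255 and 1281 in TD day 10, 939 and 1715 in TD day 4 and 620 and 732 in resting B cells. Both TD groups lay above both other groups with no overlap, while TI day 4 and resting overlapped. None of its differences passed. The log2 difference of TI day 4 minus TD day 10 was -0.81 (-1.56 to -0.06, adjusted p = 0.254), and that of TI day 4 minus TD day 4 was -0.81 (-1.56 to -0.06, adjusted p = 0.309). From resting, TD day 10 differed by 0.91 (0.16 to 1.66, adjusted p = 0.135) and TD day 4 by 0.91 (0.16 to 1.66, adjusted p = 0.141), against 0.11 (-0.64 to 0.86, adjusted p = 0.902) for TI day 4. The second, dimmer probe set had 127 and 152 units in TI day 4, 138 and 173 in TD day 10, 117 and 122 in TD day 4 and 151 and 80 in resting B cells, and did not show the TD groups above the others.

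In the mitochondrion, Hspd1 (Hsp60, the folding chamber) had 915 and 850 units in TI day 4, 1339 and 1384 in TD day 10, 1210 and 1471 in TD day 4 and 925 and 1028 in resting B cells. As with Hsp90aa1, both TD groups lay above TI day 4 and resting with no overlap, and the 2 genes correlated over the 8 arrays with r = 0.941. TI day 4 differed from TD day 10 by -0.63 on the log2 scale (-1.04 to -0.22, adjusted p = 0.133) and from TD day 4 by -0.60 (-1.01 to -0.19, adjusted p = 0.178), and neither passed. The second Hspd1 probe set, with 430 and 341 units in TI day 4, 438 and 440 in TD day 10, 365 and 386 in TD day 4 and 469 and 343 in resting B cells, overlapped between TI day 4, TD day 4 and resting.

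Hspe1 (Hsp10, the lid of the chamber) had 778 and 761 units in TI day 4, 1068 and 1146 in TD day 10, 1136 and 1162 in TD day 4 and 1253 and 1374 in resting B cells. TI day 4 lay below all other groups, the TD groups overlapped, and resting lay above all 3. It was 1.71-fold lower in TI day 4 than in resting B cells (log2 difference -0.77 ± 0.15 SE, adjusted p = 0.026), in a comparison where 3.98% of all probe sets passed as lower. The size held between -0.84 and -0.70 under every alternative, but the call was lost without any 1 of the 8 arrays, with adjusted p from 0.0525 to 0.122, with the floor at the 40th percentile (0.0551) and with the compared arrays alone (0.0913). Against TD day 10 and TD day 4 its log2 differences were -0.52 (adjusted p = 0.143) and -0.58 (adjusted p = 0.141).

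Hspd1 and Hspe1 are neighbours that are read in opposite directions from a shared promoter. By the brighter Hspd1 probe set they were ordered differently: resting lay next to TI day 4 and below both TD groups for Hspd1, and above all other groups for Hspe1. The second Hspd1 probe set overlapped between resting and both TD groups. Of the differences of the 2 genes from resting, only that of Hspe1 in TI day 4 passed. The 2 genes with a call as lower, Hsph1 and Hspe1, are shown by their windows of the same length, at chr5:149636266-149636565 on the minus strand and chr1:55087898-55088197 on the plus strand of GRCm38.p6. Capitals mark GAANNTTC and TTCNNGAA, which can overlap.
Hsph1: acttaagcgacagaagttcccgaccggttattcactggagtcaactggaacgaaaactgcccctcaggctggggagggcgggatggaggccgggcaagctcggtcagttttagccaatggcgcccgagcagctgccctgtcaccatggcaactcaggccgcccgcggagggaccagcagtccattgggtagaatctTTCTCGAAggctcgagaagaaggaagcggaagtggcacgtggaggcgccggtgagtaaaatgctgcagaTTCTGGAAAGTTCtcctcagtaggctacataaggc
Hspe1: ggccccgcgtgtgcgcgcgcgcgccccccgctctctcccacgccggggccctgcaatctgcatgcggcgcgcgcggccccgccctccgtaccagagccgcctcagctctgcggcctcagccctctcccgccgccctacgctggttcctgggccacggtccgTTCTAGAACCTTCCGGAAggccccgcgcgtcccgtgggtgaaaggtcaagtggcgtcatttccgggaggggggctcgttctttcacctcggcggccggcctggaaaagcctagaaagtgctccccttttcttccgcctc
The capital stretch of Hspe1, which begins 89 bases before its start, holds 3 such motifs in a row, and the window of Hspd1, at chr1:55087883-55088182 on the minus strand, contains the same bases. In Hsph1 the first motif begins 54 bases before the start and the longer run 15 bases past it.

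RefSeq windows were found for 7 of the 10 genes, 12 windows in all, since some genes have several starts. Searched on both strands, GAANNTTC was in 7 of the 12 windows, those of 6 genes, against 7.86% of 32851 windows of all genes. TTCNNGAA was in 4 windows, those of 3 genes, against 8.52%. A longer form, in which GAANNTTC and TTCNNGAA overlap by the 3 bases they share, was in 4 windows, those of Hsph1, Hspd1 and Hspe1, against 0.603% of all windows. These windows are not separate sites, since the 2 of Hsph1 overlap and those of Hspd1 and Hspe1 with the motif hold the same bases. The nearly identical windows of Hspa1a and Hspa1b are also counted as 2 for GAANNTTC. CCAAT was in 8 windows, those of 6 genes, against 37.4%. GAANNTTC was in a window of each of the 4 genes with a call, Hspa1a, Hspa1b, Hsph1 and Hspe1, and of Hspd1 and Dnaja1, for which no comparison passed. The windows of Dnajb1 held no GAANNTTC or TTCNNGAA, which says only that these letters are absent there.

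**Figure D4:**
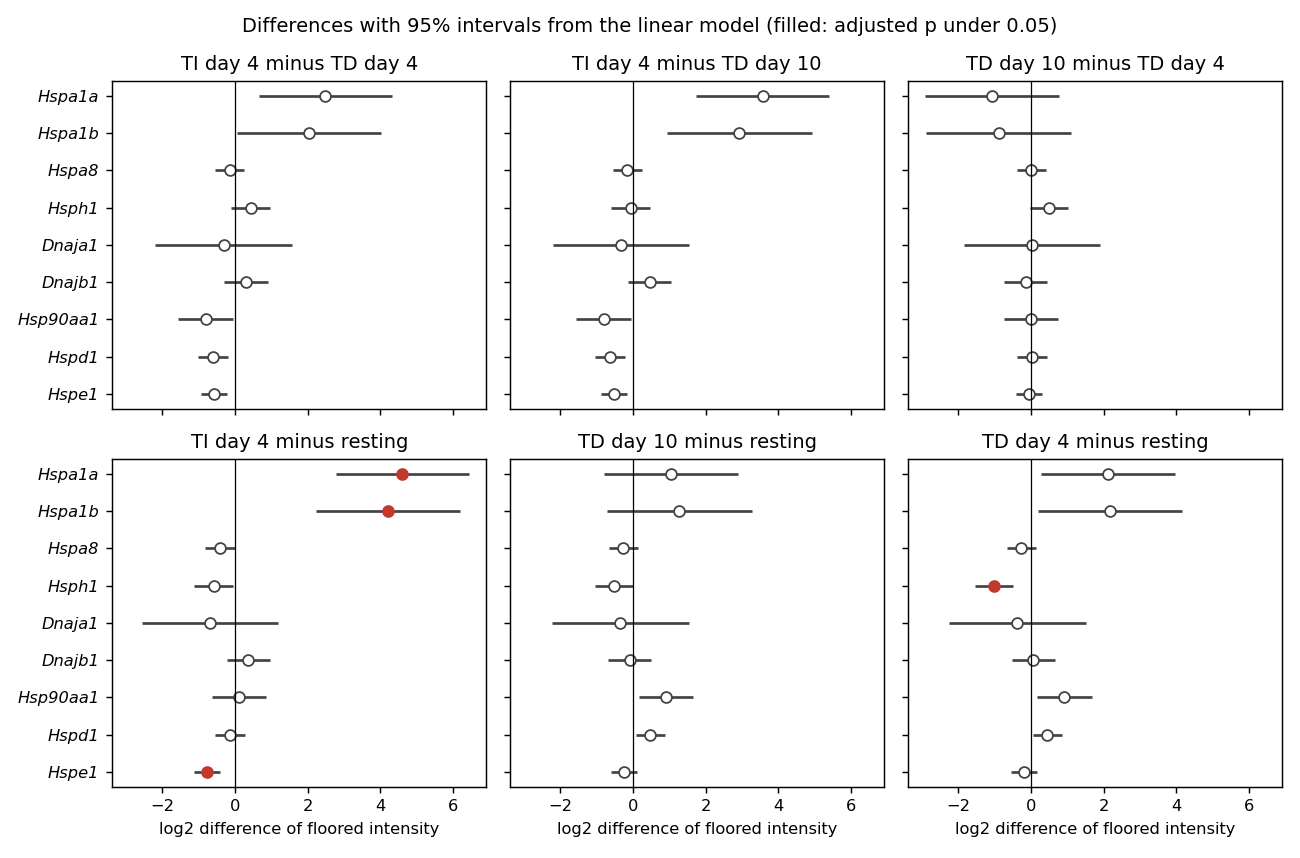
Log2 differences of floored intensity for each gene in the 6 comparisons, with 95% intervals from the linear model and filled points where the adjusted p was under 0.05. The 4 filled points are Hspa1a, Hspa1b and Hspe1 in TI day 4 minus resting and Hsph1 in TD day 4 minus resting, and the intervals of Hspa1a, Hspa1b and Dnaja1 are the widest.

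Over the 11 probe sets, 2 passed as higher and 1 as lower in TI day 4 against resting (9.4% of all probe sets passed in either direction), 0 in TD day 10 against resting (10.9%) and 1 as lower in TD day 4 against resting (9.42%). The 3 comparisons share the resting arrays. Between germinal centre groups limma called 0 of the 11 in TI day 4 against TD day 4 (1.45% of all probe sets), 0 in TI day 4 against TD day 10 (2.4%) and 0 in TD day 10 against TD day 4, where no probe set of the array passed (0%) and 373 had an unadjusted p under 0.05. At an unadjusted p under 0.05, 5 of the 11 differed between TI day 4 and TD day 4 (14.4% of all probe sets), 5 between TI day 4 and TD day 10 (17.2%), and 0 between TD day 10 and TD day 4 (5.14%). Against resting, 5 did so for TI day 4 (22.9%), 2 for TD day 10 (23.5%) and 5 for TD day 4 (22.3%). Without overlap between the arrays, 4 of the 11 lay above and 3 below in TI day 4 against TD day 4 (21.3% and 23.7% of all probe sets) and 3 above and 5 below in TI day 4 against TD day 10 (19.6% and 29.3%). Such counts were 3 above and 0 below in TD day 10 against TD day 4 (21.4% and 14.8%), and 3 above and 4 below in TI day 4 against resting (21.6% and 23%). They were 4 above and 3 below both in TD day 10 against resting (25.9% and 20.5%) and in TD day 4 against resting (22.8% and 23.6%), so that arrays without overlap were common over the whole table. The median log2 difference of the 11 ranged from -0.15 (TI day 4 minus TD day 10) to 0.13 (TD day 10 minus resting), against -0.08 and 0.04 for all probe sets in those comparisons. Probe sets of the family lay on both sides of 0 in every comparison, with 3 to 6 of the 11 above it.

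Genes that work with the heat shock proteins were read as lists. Of 8 tested genes in the list of Hsp70 relatives and small heat shock proteins, 0 passed in any comparison. The list includes Hmox1, which is neither and is also counted among the macrophage markers. The 2 with the smallest p were Hspa4, an Hsp110 protein, and Hspb2, a small heat shock protein. Hspa4 had 424 and 351 units in TI day 4, 652 and 710 in TD day 10, 738 and 649 in TD day 4 and 490 and 358 in resting B cells, so that both TD groups lay above the other groups, as for Hsp90aa1 and Hspd1. Hspb2 had 118 and 325 units in TI day 4, 532 and 558 in TD day 10, 504 and 501 in TD day 4 and 446 and 407 in resting B cells, lowest on both TI arrays. Of 12 tested Hsp90 co-chaperones 0 passed in any comparison. Stip1, which joins Hsp70 to Hsp90, had 319 and 362 units in TI day 4, 340 and 428 in TD day 10, 389 and 388 in TD day 4 and 517 and 531 in resting B cells, highest on both resting arrays as was Hspa8. In the list of heat shock transcription factors and partners 4 genes were tested, all of them partners, and 0 passed. Hsf2 and Hsf4, the heat shock factors with a probe set, were under the floor on all 8 arrays. Hsf1 had no probe set of its own, so no heat shock factor was tested. Of those tested, the smallest p were those of Daxx and Vcp, a partner that pulls proteins apart, with 1269 and 1673 units in TI day 4, 1018 and 1328 in TD day 10, 1344 and 1038 in TD day 4 and 870 and 1187 in resting B cells.

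Among 16 tested Hsp70 co-chaperones 1 passed against resting in each germinal centre group, Dnajc9, a J-domain protein that also chaperones histones, against 9.4% of all probe sets for TI day 4, 10.9% for TD day 10 and 9.42% for TD day 4. It had 1313 and 848 units in TI day 4, 1490 and 1166 in TD day 10, 1680 and 1620 in TD day 4 and 414 and 452 in resting B cells. It was higher than in resting 2.44-fold in TI day 4 (adjusted p = 0.028), 3.05-fold in TD day 10 (0.012) and 3.81-fold in TD day 4 (0.008), so that all germinal centre groups lay above resting. These calls were lost in TI day 4 without TI day 4 replicate 1 (log2 0.97, adjusted p = 0.102), either TD day 4 array (0.063 and 0.064) or either resting array (0.097 and 0.071). They were also lost in TD day 10 without either of its own arrays (0.082 and 0.051) and in TD day 4 without either of its own (0.062 and 0.056). With the compared arrays alone those in TI day 4 (0.151) and TD day 10 (0.0576) were lost, and with no filter that in TI day 4 (0.0964).

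The cytosolic chaperonin CCT, a ring that folds actin and tubulin, and prefoldin, which feeds it, had 13 tested genes. In TI day 4 against each TD group 0 passed as higher and 1, the CCT subunit Tcp1, as lower (2.4% of all probe sets passed in either direction against TD day 10 and 1.45% against TD day 4). Tcp1 had 59 and 23 units in TI day 4, 206 and 200 in TD day 10, 167 and 205 in TD day 4 and -44 and 35 in resting B cells, so that it was above the floor on the TD arrays alone. It passed the filter through those arrays only. All its TI day 4 and resting values were set to the floor, so the p-values of its calls include no spread within these groups. It was at least 2.51-fold lower in TI day 4 than in TD day 10 (adjusted p = 0.017) and at least 2.28-fold lower than in TD day 4 (0.032). With a floor at the 60th percentile the log2 differences shrank to -0.51 and -0.37 (adjusted p = 0.123 and 0.278), and both calls were lost without either array of either group compared (adjusted p from 0.0863 to 0.18), the second also without either TD day 10 array (0.0738 and 0.0736). With the compared arrays alone both missed (0.0643 and 0.114), and the second also with no filter (0.0525) and with the trended and robust prior (0.0724). Against resting, 3 genes passed as higher in TD day 10 (Tcp1, Vbp1 and Pfdn2), 2 in TD day 4 (Tcp1 and Vbp1) and 0 in TI day 4, while 10.9%, 9.42% and 9.4% of all probe sets passed in either direction. Both resting values of Pfdn2, -66 and 44 units, were set to the floor as were those of Tcp1. With the floor at the 60th percentile Tcp1 differed from resting by 0.51 in TD day 10 (adjusted p = 0.071) and 0.37 in TD day 4 (0.172) on the log2 scale, and Pfdn2 in TD day 10 by 0.20 (0.464), against 1.33, 1.19 and 1.02 with the floor used. Vbp1, a prefoldin subunit, had 345 and 313 units in TI day 4, 493 and 503 in TD day 10, 414 and 609 in TD day 4 and 180 and 228 in resting B cells. Its call in TD day 10 was lost without either TD day 10 array (adjusted p = 0.101 and 0.102) or resting replicate 1 (0.0638), and that in TD day 4 without either TD day 10 array (0.0508 and 0.0506), TD day 4 replicate 2 (log2 1.03, adjusted p = 0.0997) or resting replicate 1 (0.075). The call of Tcp1 in TD day 4 was lost without TD day 4 replicate 2 (0.0614), and that of Pfdn2 without either TD day 10 array (0.105 and 0.0545) or either resting array (0.0521 and 0.0676). With the compared arrays alone the calls of Tcp1 in TD day 4 (0.0788), Pfdn2 (0.0832) and Vbp1 in TD day 10 (0.0696) and TD day 4 (0.142) were lost, and with no filter both calls of Vbp1 (0.0664 and 0.0716). The median log2 difference of the 13 was 0.31 in TD day 10 and 0.28 in TD day 4 against resting, with 0.04 and -0.02 for all probe sets.

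Of 16 other mitochondrial chaperones, import genes and proteases tested, 1 fell in TI day 4 against TD day 10 (2.4% of all probe sets passed in either direction) and 1 in TI day 4 against resting (3.98% passed as lower), shares near those of all probe sets. Hspa9, the mitochondrial Hsp70 that pulls proteins into the matrix, had 184 and 201 units in TI day 4, 369 and 391 in TD day 10, 358 and 370 in TD day 4 and 331 and 284 in resting B cells. TI day 4 lay below all other groups, as for Hspe1, and 1.98-fold below TD day 10 (adjusted p = 0.037), a call lost without any 1 of the arrays of the TI day 4, TD day 10 and TD day 4 groups (adjusted p from 0.089 to 0.172). The call of Hspa9 was also lost with the floor at the 40th percentile (0.0648), with the compared arrays alone (0.0831) and with the trended and robust prior (0.057). Dnaja3, the J-domain partner of Hspa9, had 253 and 105 units in TI day 4, 556 and 550 in TD day 10, 484 and 427 in TD day 4 and 637 and 494 in resting B cells. It was 3.44-fold lower in TI day 4 than in resting (adjusted p = 0.046), and the call was lost without TI day 4 replicate 2 (log2 -1.15, adjusted p = 0.077) and without any 1 TD or resting array (adjusted p from 0.0865 to 0.152), and with the floor at the 40th percentile (0.0621), no filter (0.172) or the compared arrays alone (0.239). The list's median was -0.45 in TI day 4 minus TD day 10, against -0.08 for all probe sets.

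The chaperones of the endoplasmic reticulum, a compartment outside the family described here, had 18 tested genes, of which 6 rose and 1 fell in TI day 4 against resting, where 5.42% of all probe sets passed as higher and 3.98% as lower. Hsp90b1, the Hsp90 of that compartment, had 3734 and 4400 units in TI day 4, 985 and 970 in TD day 10, 726 and 1195 in TD day 4 and 1253 and 1105 in resting B cells. It was 3.44-fold higher in TI day 4 than in resting (adjusted p = 0.011), a call lost without TI day 4 replicate 2 (log2 1.67, adjusted p = 0.0715), with no filter (0.0509) and with the compared arrays alone (0.0625). For Hsp90aa1 the arrays of these 2 groups overlapped. The median log2 difference of the 18 was 0.81 in TI day 4 minus resting, with -0.07 for the 11 heat shock probe sets and -0.02 for all probe sets. The plasma cell markers named above were, as a sum, highest in the same group, and their part in the difference was not tested.

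**Figure D5:**
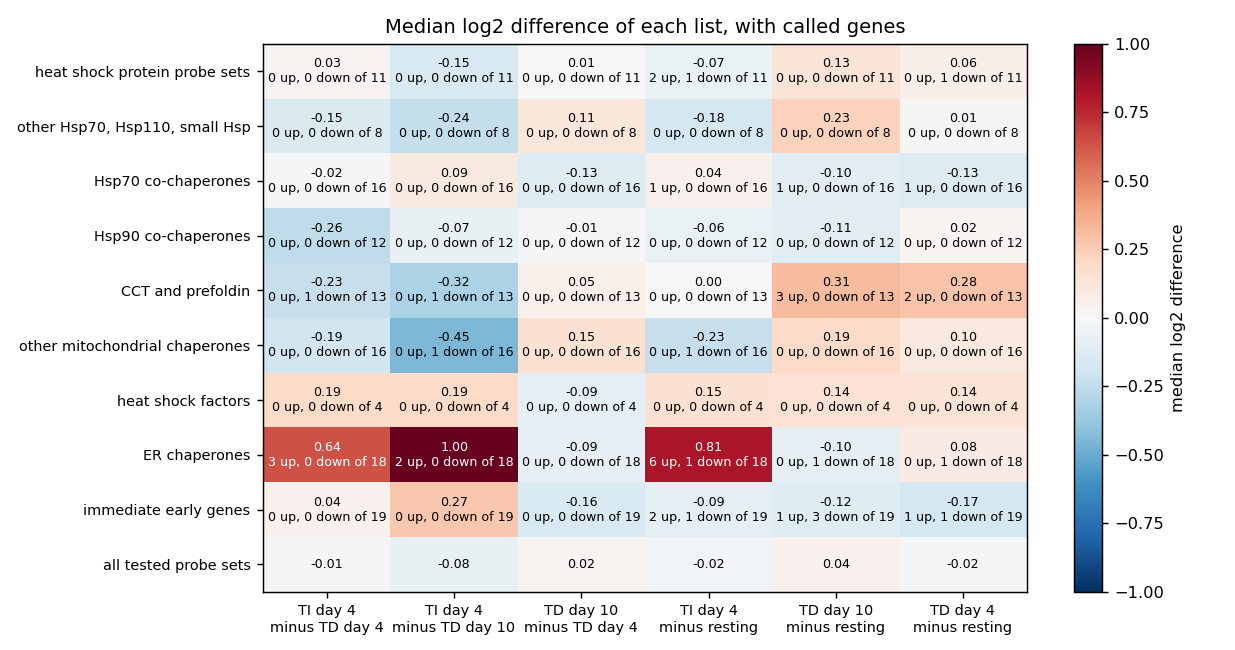
Median log2 difference (colour and upper number) of each list in the 6 comparisons, with the number of genes that passed as higher (up) and lower (down) and the number tested below it, and the median over all tested probe sets in the bottom row. The row of heat shock factors holds 4 tested partners and no heat shock factor. The endoplasmic reticulum list has medians of 0.64 to 1.00 in the comparisons of TI day 4, while the heat shock probe sets stay between -0.15 and 0.13 in all 6.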

How the data were processed

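Per the labels' protocols, RNAzol was used to extract total RNA, which was labelled with biotin in the way Affymetrix prescribes. The deposited values are whole-number intensities on a linear scale, 30.1% of them 0 or below, and neither the scaling nor the software is given in the sources used here. The mean of each array without its lowest and highest values was nearly equal, from which the values were read as scaled with background subtracted. They were used without further normalization.

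Values under the 50th percentile of all values, 81, were set to it before log2 was taken. After 66 control probe sets were set aside, 7253 of 12488 probe sets above this floor on at least 2 arrays were tested in limma 3.58.1 under R 4.3.3. A linear model of the 4 groups was fitted to all 8 arrays (4 residual degrees of freedom, 2.20 from the prior), with two-sided tests of 6 comparisons. P-values were adjusted by the Benjamini-Hochberg method within each comparison, over every probe set tested, at 0.05. A fold with an array of its dimmer side under the floor is a lower bound. Where a gene has several probe sets, the brightest stands for it unless both are given. The probe annotation names 1 gene for 10855 probe sets, several for 396 and none for 1237. The number of arrays limits the precision. The method was tested on simulated data.

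The members and lists were chosen with earlier results of these data known. Named genes are the members, from each list up to 4 called genes or else the 2 with the smallest p, and the 3 genes most like the members of widest range. The text gives part of them. Hsf2, Hsf4, Bcl6, Gcsam, the markers of other cells and Fos beside the replicate gap were named after their values were seen. Promoter windows are RefSeq's on GRCm38.p6.

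Alternatives were a floor at the 40th percentile or at the 60th, a stricter filter and none, a common array median, quantile normalization, the compared arrays alone, a replicate block, a robust prior with a trend, and leaving out each array.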

Additional observations from a re-analysis of the deposited data

How the results depend on the processing

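The number of heat shock probe sets called in TI day 4 against resting, 3, fell to 1 with no filter on low values and to 0 with only the arrays compared, was 2 with the 40th percentile as floor and with the replicate block, and lay between 0 and 2 when 1 array was left out. It stayed at 3 with the 60th percentile as floor, both normalizations, the stricter filter and the other prior. In TD day 4 against resting, the 1 call went to 0 with the 40th percentile as floor, no filter, the replicate block and only the arrays compared, and lay between 0 and 1 when 1 array was left out. Without TD day 4 replicate 1 the call there was Hspa1a in place of Hsph1. In TI day 4 against TD day 10 the count of 0 became 1 when either TD day 4 array was left out, a range of 0 to 1, and in the other 3 comparisons it was 0 under all 17 alternatives. With the block, Hspe1 in TI day 4 (adjusted p = 0.0583) and Hsph1 in TD day 4 (0.077) missed the threshold, and no other heat shock call changed. Of the list calls named, those of Tcp1 in TI day 4 against TD day 4 (0.076) and Hspa9 in TI day 4 against TD day 10 (0.0875) were lost with the block. The cause of these changes was not tested. Deviations from the group means correlated between same-numbered arrays at -0.217 to 0.121 in 6 pairs of groups, 1 of them over 0.1. No pairing by number was seen over the whole table, and shared handling of some same-numbered arrays was not tested. None of the 22 differences with an unadjusted p under 0.05 changed sign under any alternative. In all 22 the arrays of the groups compared did not overlap. Leaving out 1 array could therefore not change their sign, and the lack of change is no test of them. Of the 44 others 22 changed sign in at least 1 alternative, and 0 of those 44 was called in any. Signal over background limits the dim values: those under 81, which include Dnaja1 on 1 TD day 4 array, Hspa1a and the second Hsp90aa1 probe set on 1 resting array each, have no order.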
